A study of Mus musculus with 6 samples.

Results

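The genes described here repair the ruptured nuclear envelope or sense DNA that has reached the cytosol. They were taken from the deposited count matrix by gene symbol and number 10 of its 45777 genes: Chmp7, Chmp4b, Chmp2a, Vps4a and Vps4b for repair, and Cgas, Trex1, Tbk1, Irf3 and Ifnb1 for DNA sensing. RNA was sequenced from 3 tumors of the hind footpad and 3 tumors of the flank skin, 1 library per tumor, and all 6 tumors were grafts of B16F10, a mouse melanoma cell line. The study compared the sites because the footpad carries weight during walking and the flank does not, and asked what this load does to the nuclei of melanoma cells. Every host is labelled Foxn1-/-, a genotype that leaves mice without a working thymus, with an age of 8 weeks, so neither group is a model of a tumor under T cell attack. No treatment is labelled for either site, and the labels tie no tumor to a mouse. The study describes grafting flank and footpad of a mouse at the same time and counts its expression values by mouse, so a footpad and a flank tumor may share a host, but which tumors would do so is not given.

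When the nuclear envelope breaks, the small protein BANF1 coats the exposed DNA and recruits membrane proteins such as LEMD2. LEMD2 binds CHMP7, which seeds filaments of the ESCRT-III complex, CHMP4B and CHMP2A build and end the filament, and the AAA ATPases VPS4A and VPS4B pull the filament apart while the hole closes. DNA that is left in the cytosol binds the enzyme cGAS, which makes the messenger cGAMP. cGAMP acts through STING and the kinase TBK1 on the transcription factor IRF3, which turns on the gene of interferon beta (Ifnb1) and a set of interferon-stimulated genes. The nuclease TREX1 degrades cytosolic DNA before cGAS can bind it. Much of this control acts on where proteins are and how they are modified, which transcript levels do not measure.

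No difference between the sites was called for any of the repair or DNA sensing genes. None of the 9 genes with enough reads passed an adjusted p of 0.05 in the quasi-likelihood test of edgeR, adjusted by Benjamini-Hochberg over all tested genes, none had footpad and flank tumors without overlap, and for all 9 the 95% interval of the fold change stayed within 2-fold in either direction. The lowest adjusted p was that of Irf3, at 0.178, with a level 0.709 times that of flank tumors. Ifnb1 had 2 reads in 1 tumor and 0 in the other 5. Of the 55 other genes of these pathways that were tested, 1 was called higher and 0 lower, beside 3.43% of all genes called higher and 1.44% called lower. The called gene was Enpp1, which encodes the enzyme that degrades cGAMP outside cells and was 4.85-fold higher in footpad tumors. This call was lost when any 1 of 3 tumors was left out, and in those fits most calls over all genes were lost too.

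Depth ranged from 46529649 to 66364366 reads counted on genes, and 3 reads, taken as the limit of detection, equalled 0.0438 to 0.0673 CPM (counts relative to library size, after TMM scaling). The melanoma label held: 9 melanocyte genes summed to between 10077 and 25546 CPM in every tumor. T cell markers were absent or near absent, with Cd3d and Cd3g at 0 reads in all 6 tumors and Cd3e at 2 reads in 1, and the 8 T and NK cell markers summed to 0.342 CPM or less. The methods of the study state that tumor cells were isolated before RNA extraction and name no way of separating them from other cells. Markers of fibroblasts, endothelial cells and macrophages were present in every tumor, and each library is a bulk sample in which fewer cells of a type and less RNA per cell cannot be told apart. Fibroblast markers stood apart by site, at 3022 to 4268 CPM in footpad tumors and 105 to 478 CPM in flank tumors for the sum of 10 genes, of which 9 were called higher. The sum of 7 endothelial markers was 128 to 203 CPM in footpad tumors and 69.1 to 92.0 in flank tumors, with 3 called higher, and that of 11 macrophage markers was 211 to 267 and 152 to 202, with 1 called higher. Mertk made up 134 of the 159 CPM of the macrophage sum in flank replicate 1, where Csf1r was at 0.655 CPM. The log2 fold change of Mertk was -0.19, and those of the other macrophage markers were positive. Footpad replicate 2 had the highest sums of keratinocyte markers (775 CPM, against 21.0 to 64.7 in the others) and of muscle markers (1072 CPM, against 11.1 to 197). Footpad replicates 1 and 3 had the highest sums of neutrophil markers, at 363 and 176 CPM, against 4.35 to 29.7 in the others. The part of these cells in the levels below was not tested beyond leaving out each tumor in turn.

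The promoter of Ifnb1 is shown because IRF3 acts there, and the reads of Ifnb1 are a readout of the DNA sensing pathway beside the interferon-stimulated genes. Beside it stand the promoters of Ifit3, an interferon-stimulated gene named below by rule, and of Isg15, which was chosen after its values were seen. The promoter of Ifit2, which the same rule names, is not shown, so the runs are examples and not a sample of these genes. Each run covers bases 150 to 51 upstream of the start listed by RefSeq for GRCm38.p6, written 5′ to 3′ on the strand of the gene. Capitals mark matches, on either strand, to the interferon-stimulated response element GAAANNGAAA, to the shorter core AANNGAAA that interferon regulatory factors such as IRF3 bind, and to the NF-kB motif GGGANNTTCC. Every match to the first of these also contains the second.
Ifnb1 (chr4:88522845-88522944, minus strand): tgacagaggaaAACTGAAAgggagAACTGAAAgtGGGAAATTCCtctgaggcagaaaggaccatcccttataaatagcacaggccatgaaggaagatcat
Ifit3 (chr19:34583379-34583478, plus strand): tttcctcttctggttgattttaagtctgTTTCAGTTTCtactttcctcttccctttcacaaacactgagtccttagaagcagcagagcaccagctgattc
Isg15 (chr4:156200869-156200968, minus strand): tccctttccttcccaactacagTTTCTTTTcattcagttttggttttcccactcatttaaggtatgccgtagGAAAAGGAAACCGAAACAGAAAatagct

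In the Ifnb1 run the IRF core occurred at bases 139 to 132 and 126 to 119 upstream of the listed start, and the NF-kB motif followed at bases 116 to 107. The Ifit3 run held 1 response element on the opposite strand. The Isg15 run held 3, at bases 78 to 69, 72 to 63 and 66 to 57, each overlapping the next, and a separate IRF core at bases 128 to 121. Over the 250 bases upstream of each start, the response element was found in 0 of the 9 members with a listed promoter, in 5 of 9 interferon-stimulated genes with one, and in 3.46% of 27025 genes. The NF-kB motif was found in 1 member, Ifnb1, in 2 of the 9 interferon-stimulated genes (Cxcl10 and Ifit2) and in 1.36% of all genes. The shorter IRF core was found in 2 members, Ifnb1 and Vps4b, in 7 of the 9 interferon-stimulated genes and in 23.9% of all genes. Ifit2 had neither this core nor the response element. Chmp7 has no entry among these promoters. The matches describe letters in these windows and no binding was measured.

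The levels per transcript length, as the deposited FPKM (fragments scaled for transcript length and library depth), placed the filament subunits at the top and the DNA sensor near the bottom. Over the 6 tumors the mean was 73.0 ± 8.85 FPKM (SD, n = 6) for Chmp4b and 66.4 ± 14.6 for Chmp2a, above 95.3% and 94.7% of the 17210 tested genes. Chmp4b was above Chmp2a in 5 of 6 tumors and the ranges of these 2 genes overlapped. The ATPases followed at 26.1 ± 1.47 FPKM for Vps4b and 23.1 ± 3.32 for Vps4a, with Vps4b higher in 5 tumors, and then Chmp7 at 19.6 ± 2.49, and each of these 3 ranges overlapped with the next. The lowest Chmp2a value, 52.5 FPKM, was above the highest Vps4b value, 28.2. Tbk1, at 14.9 ± 2.06 FPKM, and Irf3, at 13.7 ± 3.40, overlapped with each other, and Tbk1 overlapped with Chmp7. Trex1 was lower at 4.01 ± 0.652 FPKM and Cgas lower again at 2.04 ± 0.395, above 37.9% of tested genes, and neither range reached that of its neighbors in this order. The place of Trex1 is uncertain, because a readthrough gene that spans it takes part of the reads. Ifnb1 was listed at 0.0385 FPKM in footpad replicate 3 and at 0 in the other tumors.

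**Figure D1:**
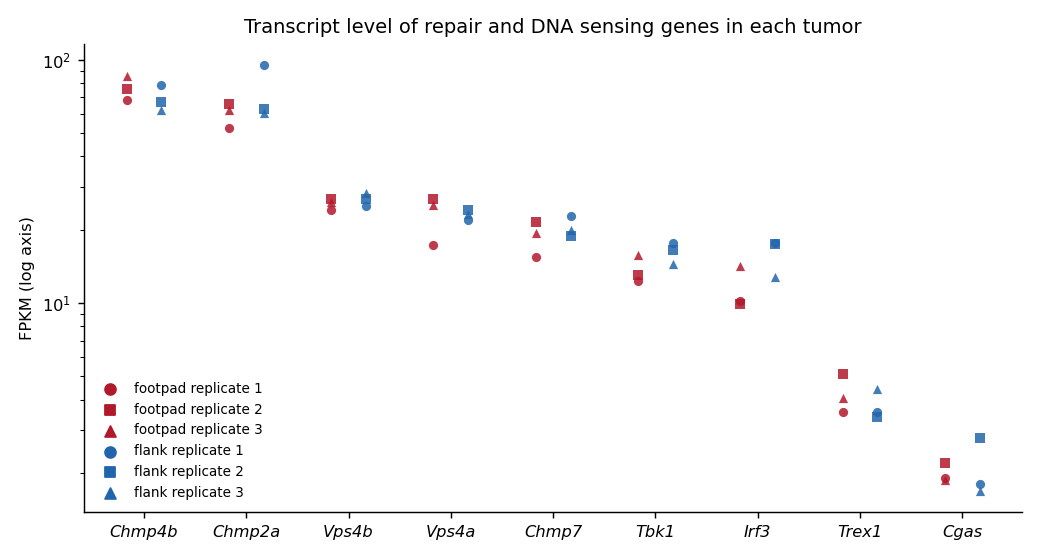
Deposited FPKM (log axis) of the 9 genes with reads in every tumor, ordered by their mean; red points are the 3 footpad tumors and blue points the 3 flank tumors, with 1 marker shape per replicate number. The genes run from 73.0 FPKM for Chmp4b to 2.04 for Cgas, and red and blue points overlap for every gene.

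Chmp7 (chr14:69716979-69732570, GRCm38), the subunit that links ESCRT-III to the nuclear membrane, had 51.1, 61.6 and 57.4 CPM in footpad replicates 1 to 3 and 75.3, 52.8 and 60.5 CPM in flank replicates 1 to 3. Flank replicate 1 was the highest and the others overlapped. The fitted log2 fold change of footpad against flank was -0.15 (SE 0.16, 95% interval -0.53 to 0.23, edgeR adjusted p = 0.604), and it was -0.00 without flank replicate 1. Chmp4b (chr2:154657026-154694783), the main filament subunit, had 133, 130 and 152 CPM in footpad tumors and 155, 111 and 112 CPM in flank tumors. Flank replicate 1 was again the highest, and the other flank tumors lay below the 3 footpad tumors. Footpad against flank, the log2 fold change was 0.13 (SE 0.17, 95% interval -0.26 to 0.53, edgeR adjusted p = 0.655). Chmp2a (chr7:13032006-13034777), which caps the filament and recruits the ATPase, had 61.6, 67.7 and 65.5 CPM in footpad tumors and 111, 62.8 and 65.4 CPM in flank tumors. The 5 tumors other than flank replicate 1 lay between 61.6 and 67.7 CPM. The log2 fold change of -0.30 (SE 0.23, 95% interval -0.83 to 0.23, edgeR adjusted p = 0.446) rested on that tumor and was 0.01 without it.

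Vps4a (chr8:107031269-107045760), an ATPase that disassembles the filament, had 45.0, 61.0 and 59.4 CPM in footpad tumors and 57.2, 52.9 and 55.4 CPM in flank tumors. The flank tumors lay inside the range of the footpad tumors. A log2 fold change of -0.00 was fitted (SE 0.15, 95% interval -0.35 to 0.35, edgeR adjusted p = 0.997), and its sign turned under several alternatives. Vps4b (chr1:106770788-106796725), its paralog, was the steadiest member, with 95.7, 93.0 and 93.8 CPM in footpad tumors and 99.7, 90.0 and 104 CPM in flank tumors. The highest tumor was 1.15-fold above the lowest. Its log2 fold change was -0.05 (SE 0.12, 95% interval -0.33 to 0.22, edgeR adjusted p = 0.807), which bounds a difference to between 0.795-fold and 1.17-fold.

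Cgas (chr9:78430518-78443237), the DNA sensor, had 9.52, 9.61 and 8.41 CPM in footpad tumors and 9.02, 11.7 and 7.80 CPM in flank tumors, from 412 to 683 reads. The flank tumors held both the highest and the lowest value. The log2 fold change was -0.05 (SE 0.21, 95% interval -0.55 to 0.45, edgeR adjusted p = 0.910), and it was 0.12 without flank replicate 2. Trex1 (chr9:109057932-109059723), the nuclease that clears cytosolic DNA, had 4.65, 5.79 and 4.76 CPM in footpad tumors and 4.64, 3.76 and 5.32 CPM in flank tumors. The sites overlapped, with the lowest value in flank replicate 2, the tumor with the highest Cgas. Its log2 fold change was 0.15 (SE 0.25, 95% interval -0.43 to 0.72, edgeR adjusted p = 0.744). Trex1 lies within the readthrough gene Atrip-trex1 on the same strand, which took 596 to 986 reads per tumor beside 207 to 397 for Trex1, so the reads of Trex1 are uncertain. The share of Trex1 in the reads of both genes ran from 18.2% in flank replicate 2 to 33.1% in footpad replicate 2. The low Trex1 value of flank replicate 2 is therefore uncertain as well. With the reads of both genes joined, an alternative added after seeing the data, the log2 fold change was 0.06 (edgeR adjusted p = 0.844).

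Tbk1 (chr10:121546455-121586794), the kinase that activates IRF3, had 45.5, 41.9 and 52.4 CPM in footpad tumors and 65.1, 51.7 and 49.4 CPM in flank tumors. Footpad replicate 3 lay above flank replicates 2 and 3, so the sites overlapped. The fit gave a log2 fold change of -0.25 (SE 0.16, 95% interval -0.62 to 0.12, edgeR adjusted p = 0.361). Irf3 (chr7:44997648-45002848), the transcription factor, had 23.6, 20.7 and 30.1 CPM in footpad tumors and 41.4, 35.5 and 28.0 CPM in flank tumors. Only footpad replicate 3 reached into the flank range, above flank replicate 3. The log2 fold change was -0.50 (SE 0.20, 95% interval -0.96 to -0.03), with an unadjusted p of 0.0409 and an edgeR adjusted p of 0.178, and it stayed negative without each tumor in turn, between -0.66 and -0.36. Ifnb1 (chr4:88522025-88522794), the interferon gene that IRF3 turns on, had 2 reads in footpad replicate 3 and 0 in the other 5 tumors. All 6 tumors were under the limit of 3 reads, and a difference was not detectable at this depth.

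The members' counts are set here against those of all genes. In edgeR, 0 of the 9 tested members were called higher and 0 lower at an adjusted p under 0.05, beside 3.43% of the 17210 tested genes called higher and 1.44% called lower. At an unadjusted p under 0.05, 0 members were higher, beside 14.8% of all genes, and 1 was lower, Irf3, beside 10.5%. In DESeq2, 0 members were called, beside 7.86% of its 20060 genes called higher and 4.42% called lower. Every footpad tumor lay above every flank tumor for 0 members, beside 17.5% of all genes, and below for 0 members, beside 14.9%. The median log2 fold change was -0.05 over the members and -0.00 over all genes, and the median of its absolute size was 0.15 over the members and 0.35 over all genes. The interval lay within 2-fold for 51.2% of all genes, many of which have fewer reads than the members.

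**Figure D2:**
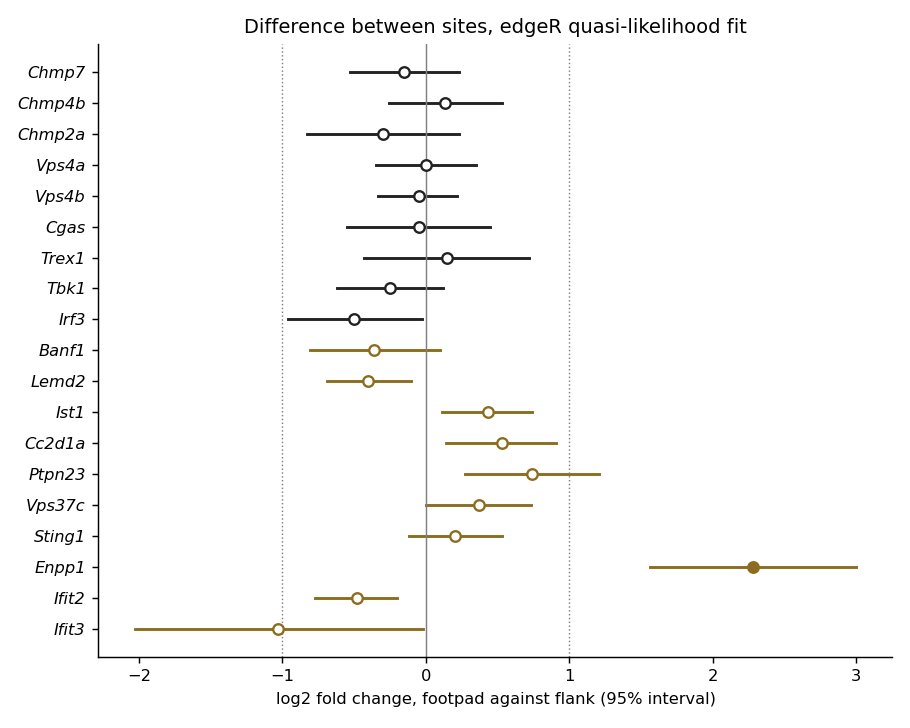
Log2 fold change of footpad against flank tumors with its 95% interval in the edgeR fit, for the 9 tested members (black) and 10 other genes of the pathways (brown); filled points passed an adjusted p of 0.05 and dotted lines mark 2-fold. All black intervals lie inside the dotted lines, Irf3 at -0.50 is the lowest of them, and the filled point is Enpp1 at 2.28.

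Among the tumors, flank replicate 1 held the highest CPM of 5 of the 9 tested members (Chmp7, Chmp4b, Chmp2a, Tbk1 and Irf3), and it also had the highest sum of melanocyte markers, 25546 CPM. Footpad replicate 1, which held the lowest CPM of 3 members, had the lowest sum of melanocyte markers, 10077 CPM. The single markers did not all follow the sum. Sox10 went the other way, with its highest value, 191 CPM, in footpad replicate 1 and its lowest, 151 CPM, in flank replicate 1. Mitf and Slc45a2 were highest in footpad replicate 2, and Mlana in flank replicate 3. The part of melanoma cell content in these levels was not tested.

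Ratios of partners within a tumor do not depend on library size, and 3 of them were compared on the FPKM scale. The log2 ratio of Chmp7 to Chmp4b, the seed of the filament relative to its main subunit, was -2.14, -1.83 and -2.15 in footpad tumors and -1.79, -1.82 and -1.65 in flank tumors. Every footpad tumor was lower, footpad replicate 2 by a narrow margin. The mean was -2.04 ± 0.18 (SD, n = 3) in footpad tumors and -1.75 ± 0.09 in flank tumors, a difference of -0.29, with p = 0.1 in an exact two-sided permutation test, the smallest p that 3 against 3 tumors allow. The log2 ratio of Vps4a to Vps4b was -0.47, 0.01 and -0.04 in footpad tumors and -0.19, -0.15 and -0.29 in flank tumors, with overlap and an exact permutation p of 0.900. The log2 ratio of Trex1 to Cgas was 0.90, 1.21 and 1.11 in footpad tumors and 0.98, 0.30 and 1.38 in flank tumors, so that flank tumors held both extremes and the exact permutation p was 0.800. This ratio carries the uncertainty of the Trex1 reads, and it was not repeated with the reads of Atrip-trex1 joined. With 3 ratios compared and no p able to pass 0.05, none is called.

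**Figure D3:**
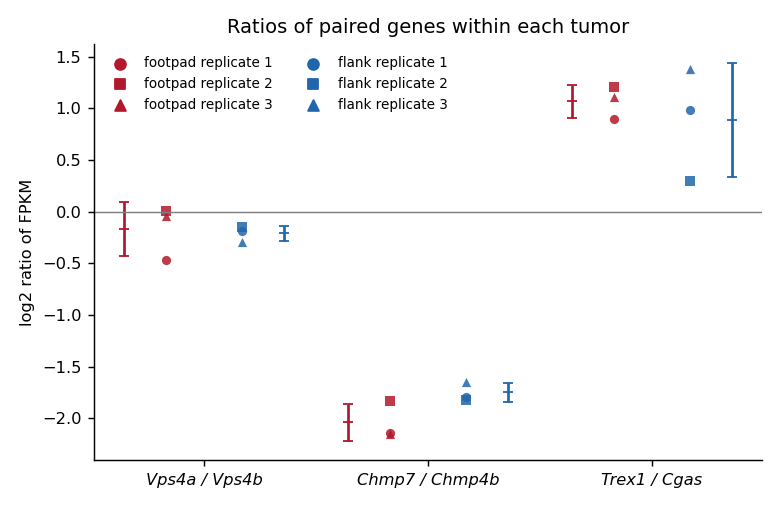
Log2 ratio of FPKM within each tumor for 3 pairs of genes; points are tumors, and the bars beside them are the mean and SD of the 3 footpad (red) and 3 flank (blue) tumors. For Chmp7 to Chmp4b the red points lie at or under -1.83 and the blue points at or above -1.82, while the sites overlap for the other pairs.

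In the wider repair machinery no gene was called either. Of 33 other genes of the ESCRT complexes and their nuclear envelope partners, 32 were tested, and edgeR called 0 of them in either direction, while 5 were higher and 1 lower at an unadjusted p under 0.05. That is near the 14.8% of all genes higher and below the 10.5% lower by the same rule, so the genes named from this list are no result about the list. Their median log2 fold change was -0.01. Banf1, the protein that coats exposed DNA, had 27.3, 39.4 and 34.3 CPM in footpad tumors and 39.0, 37.3 and 53.1 CPM in flank tumors, with overlap and a log2 fold change of -0.36 (SE 0.20, edgeR adjusted p = 0.298). Lemd2, the receptor of CHMP7 in the inner nuclear membrane, had 36.7, 33.5 and 35.2 CPM in footpad tumors and 49.9, 41.8 and 46.9 CPM in flank tumors. Every footpad tumor was lower, and the log2 fold change of -0.40 (SE 0.13) had an unadjusted p of 0.0145 and missed the threshold after adjustment (edgeR adjusted p = 0.106).

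Ist1, an ESCRT-III related protein that binds VPS4, had 102, 84.0 and 91.7 CPM in footpad tumors and 62.9, 69.5 and 74.5 CPM in flank tumors. Every footpad tumor was higher, with a log2 fold change of 0.43 (SE 0.13, edgeR adjusted p = 0.105). Cc2d1a, a protein that binds CHMP4 subunits, had 40.4, 37.1 and 36.5 CPM in footpad tumors and 21.1, 30.7 and 27.3 CPM in flank tumors, with a log2 fold change of 0.53 (SE 0.16, edgeR adjusted p = 0.102). Ptpn23, the HD-PTP adaptor that brings ESCRT-III to endosomes, had the lowest p of these genes. It had 104, 66.7 and 73.3 CPM in footpad tumors and 40.6, 53.4 and 51.7 CPM in flank tumors. Every footpad tumor was higher, and the log2 fold change of 0.74 (SE 0.20) had an adjusted p of 0.0746 in edgeR and of 0.0145 in DESeq2. Vps37c, an ESCRT-I subunit, had 18.1, 16.5 and 15.5 CPM in footpad tumors and 11.8, 13.2 and 13.8 CPM in flank tumors, with a log2 fold change of 0.37 (SE 0.16, edgeR adjusted p = 0.197).

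Upstream and downstream of cGAS, 23 further genes were tested, of which edgeR called 1 higher and 0 lower, a share near the 3.43% of all genes called higher. Their median log2 fold change was 0.20, with 16 genes above 0 and 7 below. Sting1, listed under its older symbol Tmem173, encodes the receptor of cGAMP and had 20.9, 21.0 and 23.3 CPM in footpad tumors and 20.3, 19.0 and 17.4 CPM in flank tumors. The footpad tumors were higher by a small margin, with a log2 fold change of 0.20 (SE 0.14, 95% interval -0.12 to 0.53, edgeR adjusted p = 0.404).

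Enpp1, an ectonucleotidase that hydrolyses cGAMP outside cells and also makes pyrophosphate in mineralizing tissue, had 15.1, 11.8 and 18.3 CPM in footpad tumors and 2.04, 3.28 and 3.98 CPM in flank tumors. The lowest footpad tumor was well above the highest flank tumor. The log2 fold change was 2.28 (SE 0.31, 95% interval 1.56 to 3.0), which is 4.85-fold, with an edgeR adjusted p of 0.0154. The call was lost without footpad replicate 1 (2.27, edgeR adjusted p = 0.0690), without footpad replicate 3 (2.11, 0.0854) and without flank replicate 3 (2.49, 0.0606). In the same 3 fits, the calls over all genes fell from 590 higher and 248 lower to 26 and 5, 0 and 0, and 36 and 10. Enpp1 moved by site with the fibroblast markers and with the endothelial markers, both of which were also higher in all 3 footpad tumors. The macrophage sum was higher in all 3 footpad tumors too, by less (211 to 267 CPM against 152 to 202). Within the footpad that sum was lowest in replicate 2 and highest in replicate 1. Within the footpad, Enpp1, the fibroblast sum (4268 CPM) and the endothelial sum (203 CPM) were all highest in replicate 3, and all were lowest in replicate 2. Within the flank, Enpp1 was highest in replicate 3, while the fibroblast sum (478 CPM) and the endothelial sum (92.0 CPM) were highest in replicate 2. The part of these cells was not tested, and in bulk samples a higher level in the same cells and more cells that express Enpp1 cannot be told apart.

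**Figure D4:**
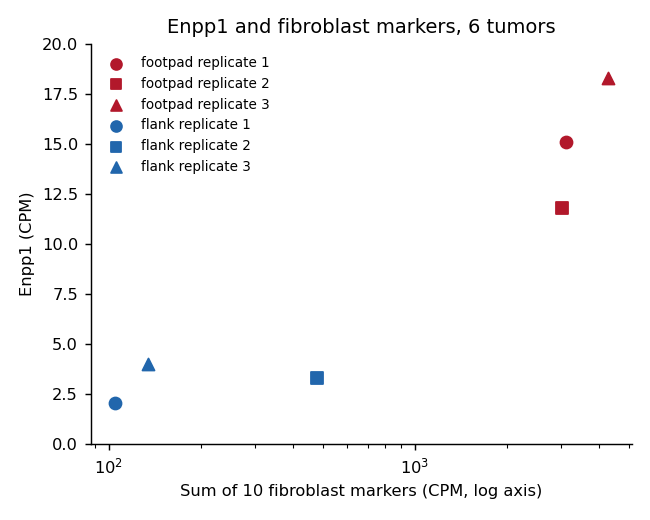
Enpp1 (CPM) against the summed level of 10 fibroblast markers (CPM, log axis) in the 6 tumors, red for footpad and blue for flank. The footpad tumors lie at 11.8 to 18.3 CPM of Enpp1 and 3022 to 4268 CPM of the markers, and the flank tumors at 2.04 to 3.98 and 105 to 478.

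The interferon-stimulated genes, on which both the cGAS pathway and other routes to interferon act, varied more from tumor to tumor than the members did. Of 14 such genes all were tested, and edgeR called 0 of them, with 0 higher and 2 lower at an unadjusted p under 0.05, beside 14.8% and 10.5% of all genes. Their median log2 fold change was -0.33, with 5 genes above 0 and 9 below. The highest tumor exceeded the lowest 4.32-fold at the median of the 14 genes and 1.50-fold at the median of the 9 members.

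Isg15, a ubiquitin-like protein induced by interferon, had 29.2, 5.02 and 18.0 CPM in footpad tumors and 41.8, 8.91 and 5.88 CPM in flank tumors. Each site thus held high and low tumors, and the log2 fold change of -0.12 had a wide 95% interval of -2.04 to 1.80 and ran from -0.71 to 1.23 over the alternatives. Flank replicate 1 held the highest CPM of 9 of the 14 genes, and footpad replicate 2 the lowest of 9. Cgas was not high in the same tumors: it lay between 7.80 and 11.7 CPM, with 9.02 CPM in flank replicate 1 and 9.61 CPM in footpad replicate 2. Tbk1 and Irf3 were highest in flank replicate 1 (65.1 and 41.4 CPM) and lowest in footpad replicate 2 (41.9 and 20.7 CPM). Trex1 and Vps4a went the other way in footpad replicate 2, where they were highest, at 5.79 and 61.0 CPM. A link between these levels and the interferon-stimulated genes was not tested.

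The 2 interferon-stimulated genes with the lowest p both had a negative log2 fold change. Ifit2, an antiviral RNA-binding protein, had 55.5, 51.7 and 58.7 CPM in footpad tumors and 83.8, 72.6 and 75.5 CPM in flank tumors. Every footpad tumor was lower, and the log2 fold change of -0.48 (SE 0.12) had an adjusted p of 0.0649 in edgeR and of 0.0328 in DESeq2. Ifit3, its partner, had 22.0, 16.9 and 21.2 CPM in footpad tumors and 72.6, 28.7 and 21.0 CPM in flank tumors. Flank replicate 3 lay inside the footpad range, and the log2 fold change of -1.03 (SE 0.43) had an adjusted p of 0.190 in edgeR and of 0.0497 in DESeq2. It rested largely on flank replicate 1 and was -0.32 without it (edgeR adjusted p = 0.360).

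**Figure D5:**
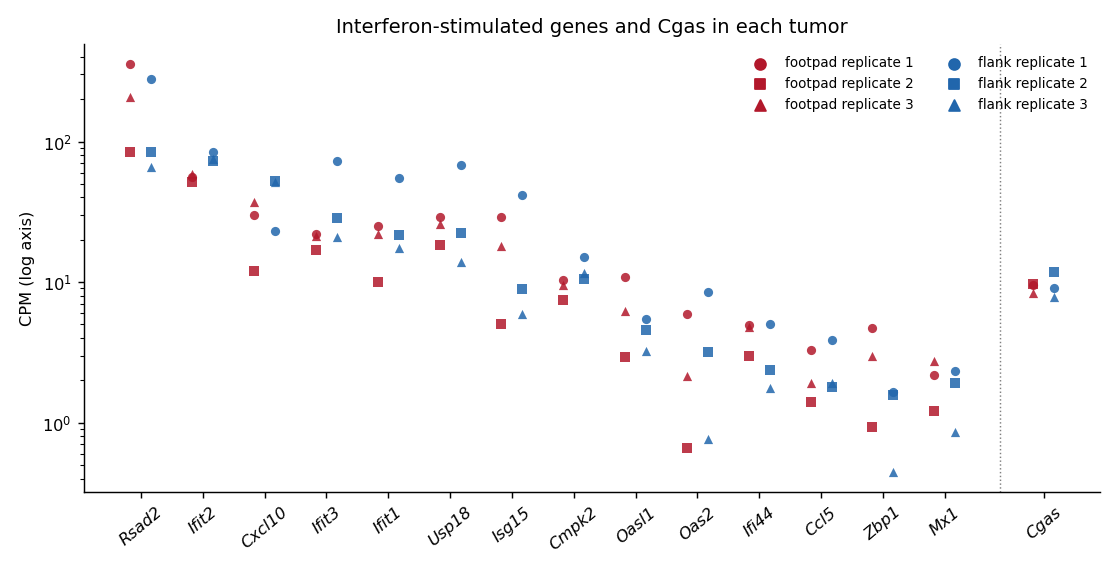
CPM (log axis) of 14 interferon-stimulated genes and, right of the dotted line, of Cgas in each tumor, with red for footpad, blue for flank and 1 marker shape per replicate number. Flank replicate 1 (blue circles) is the highest tumor for 9 of the 14 genes and footpad replicate 2 (red squares) the lowest for 9, while Cgas spans 7.80 to 11.7 CPM.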

How the data were processed

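Total RNA of the 6 tumors was sequenced by the authors from libraries that the labels describe as TruSeq, in a stranded total RNA protocol. Per the labels and the methods, reads were checked with FastQC 0.11.7, trimmed with Trimmomatic and aligned to mm10 with HISAT2 2.1.0. The authors deposited a matrix of raw counts (whole reads for each gene, not scaled) and, tumor by tumor, FPKM values. The counting program, its strand setting and how it treated reads with several matches are not given in the sources used here. Overlapping genes are therefore uncertain: Atrip-trex1 for Trex1, Gm16209 (377 to 673 reads) for Vps4a and 9030607L20Rik (73 to 198 reads) for Chmp4b. Coordinates came from RefSeq GRCm38.p6, which 45679 of 45777 gene identifiers matched.

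The raw counts went into edgeR 4.0.16 (R 4.3.3) with TMM scaling, filterByExpr at its defaults, glmQLFit, glmQLFTest, and Benjamini-Hochberg adjustment over 17210 genes. Standard errors were the log2 fold change divided by the square root of F, and 95% intervals used the degrees of freedom of the fit. The study counts its expression values by mouse, so the tumors of a site were taken as separate animals, although the labels tie no tumor to a mouse. The common biological coefficient of variation was 0.338, above counting error at this depth. Alternatives were DESeq2 1.42.0, upper-quartile scaling, no filter, 10 counts in every tumor, limma 3.58.1 on log2(FPKM + 1) and log2(FPKM + 0.1), the replicate number as a block, and leaving out each tumor. Ratios were tested with exact permutations in scipy 1.17.1, and were repeated from counts per annotated exon length (GENCODE vM21). The fits were tested on simulated data.

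The members and gene lists were chosen with earlier results of these data known, and the lists were written from general knowledge. Named beside the members were Banf1, Lemd2, Sting1 and Ist1, each list's genes with an adjusted p under 0.05 or, where it had none, the 2 with the lowest p, and for Cgas and Chmp7 the 3 genes with the most similar pattern. Isg15, Rela and Trim56 were named after their values were seen, as was the shorter IRF core, after the response element had no match in the Ifnb1 promoter.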

Additional observations from a re-analysis of the deposited data

How the results depend on the processing

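No member was called under any alternative: over 118 fits of the 9 genes the lowest adjusted p was 0.150, for Irf3 in DESeq2. Signs near 0 turned. Vps4a was 0.01 with upper-quartile scaling and 0.02 with at least 10 counts in every tumor, and without single tumors it ranged from -0.08 to 0.12, Cgas from -0.18 to 0.12 and Chmp2a from -0.45 to 0.01 on the log2 scale. DESeq2 called 1 of the 33 other ESCRT genes higher (Ptpn23) and 2 of the 23 DNA sensing genes higher (Enpp1 and Rela, 0.62, adjusted p = 0.0444). It called 2 of the 14 interferon-stimulated genes lower (Ifit2 and Ifit3). These counts stand beside 7.86% of its 20060 genes called higher and 4.42% called lower. Without single tumors the called DNA sensing genes ranged from 0 to 3, the 3 (Enpp1, Rela and Trim56) without footpad replicate 2. In that fit, calls over all 17639 tested genes also rose, to 713 higher and 274 lower. Same-numbered tumors did not deviate together (correlations of 0.0544, -0.0965 and -0.115), so the numbers were not taken as pairs. With the replicate block, 0 genes were called in all and 0 DNA sensing genes, and Enpp1 was 2.31 (adjusted p = 0.0663). Enpp1 was 1.07 in limma on log2(FPKM + 1) (adjusted p = 0.0134), a scale that shrinks the change of low genes. Over all genes, 590 higher and 248 lower calls in edgeR were 1576 and 887 in DESeq2, 26 and 5 without footpad replicate 1, 36 and 10 without flank replicate 3, and 0 and 0 without footpad replicate 3. The differences in the 3 ratios moved by less than the SD pooled over both sites, but without single tumors they ranged from -0.05 to 0.19 (Vps4a to Vps4b), -0.39 to -0.23 (Chmp7 to Chmp4b) and -0.11 to 0.43 (Trex1 to Cgas), so the first and the last changed sign. The causes were not tested.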

Other observations

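The genes whose pattern over the 6 tumors was nearest to that of a member, by the root mean square difference of centered log2 CPM, were 6030443J06Rik (0.0555), Atpsckmt (0.0888) and Dand5 (0.0900) for Cgas, where the median of all tested genes was 0.381. For Chmp7 they were Septin2 (0.0348), whose symbol is listed in the form of a date, Pigyl (0.0365) and Cab39l (0.0405), with a median of 0.372 over all tested genes. Among the members, the pattern of Chmp7 was nearest to Chmp2a (0.149) and Vps4a (0.150) and farthest from Irf3 (0.304) and Cgas (0.302). These are descriptions over 6 tumors, and the genes compared were measured in the same libraries.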
